A study of Mus musculus with 8 samples.

Results

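DNA methylation and demethylation enzymes were examined as 10 genes: the DNA methyltransferase genes Dnmt1, Dnmt3a, Dnmt3b and Dnmt3l, the UHRF genes Uhrf1 and Uhrf2, and the demethylation genes Tet1, Tet2, Tet3 and Tdg. They were chosen by name, and their cytosines are all those of CpGs with at least 10 reads in each of the 8 libraries that lie in the GENCODE M21 gene body or in the 5000 bp upstream of it. This gave 634 of 567750 cytosines, and the 1000 bp tiles holding them were 85 of 113626. The data are the DNA methylation of these genes and hold no RNA or protein levels.

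Reduced representation bisulfite sequencing (RRBS), which reads CpGs near MspI sites after bisulfite conversion, was run on tumors of NIC-5231 cells. NIC-5231 is a mouse breast cancer cell line, and its cells were grafted into mammary fat pads of mice of the immunodeficient NSG strain, aged 5 to 7 weeks. The 4 groups received vehicle, the ERRα inhibitor C29 at 10 mg/kg, 5-aza-2'-deoxycytidine (5-azadC) at 1 mg/kg, or C29+5-azadC at both doses, each given into the peritoneum every 2 days. All groups shared the same carrier of saline, PEG and DMSO, and each of the 2 libraries per group pooled tumor DNA of 2 mice out of 5 per group. All tumors came from 1 cell line, and graft and host are both mouse. A change in the methylation of a cell and a change in the mixture of tumor and host cells therefore cannot be told apart.

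DNMT1 copies methylation onto the new DNA strand after replication, and UHRF1 recruits it to hemimethylated CpGs. DNMT3A and DNMT3B set methylation at new sites, and DNMT3L, which lacks catalytic activity, stimulates them. TET enzymes oxidize 5-methylcytosine, and TDG excises the further oxidized bases. 5-azadC is a cytidine analog that is built into DNA and traps the methyltransferases there. The genes described here thus include those of its targets and of the enzymes that work against them.

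The libraries held 51359825 to 81299065 reads summed over cytosines, with 21 to 30 reads on the median cytosine. Unmethylated control DNA read 0.216 to 0.329% methylated and methylated control DNA 97.5 to 98.3%. Of 8 mammary epithelial marker genes 6 had covered cytosines within 1000 bp of their 5' end, and 4 of these 6 were below 10% methylated on average. The exceptions were Epcam, at 10.2%, and Erbb2, at 38.1%. Of 5 stromal markers, for another cell type the sample could hold, only Vim was covered. It was at 2.13 to 4.47% in the 4 libraries without 5-azadC and at 0 to 0.135% in the 4 with it. All 4 libraries with 5-azadC lay below the others in 2.54% of all genes measured at the 5' end. The summed start-site level of the epithelial list ranged from 41.2 to 80.7 points in the 4 libraries without 5-azadC and from 40.7 to 66.8 points in the 4 with it. The part of the cell mixture in the results that follow was not tested. Reads were amplified without molecular identifiers, so what is tested on reads, and each limit given for a value of 0, takes in counting error alone.

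Coverage was uneven among the genes. Dnmt3a had 143 cytosines, Dnmt3b 124, Tet3 101, Tet1 67, Tet2 63, Dnmt1 53, Uhrf2 48 and Uhrf1 30, while Tdg had 3 and Dnmt3l 2. This was between 0.274% of the CpG cytosines in the genomic sequence of Dnmt3l and 10.5% of those of Dnmt3b. Tdg was measured only in its interior, and Dnmt3l only at a pair of sites upstream of the gene, at positions -1924 and -1958 bp from its 5' end. Some windows are shared with other annotated genes, among them Dnmt3aos and Dnmt3bos, S1pr2 at Dnmt1, Aire at Dnmt3l and Arrdc5 at Uhrf1, and a methylation value there belongs to both genes.

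Several of the genes begin more than once, and the starts differed sharply in methylation. The sequences below show where. They are from GRCm38 (mm10), read 5' to 3' on the strand of the gene, and capitals mark the CpGs that were measured in all 8 libraries. The first 4 are a low and a high region from the 5' part of Dnmt1 and of Tet3, the next is the intermediate region at an internal Dnmt3a start, then follows the methylated flank upstream of Uhrf2, and the last is a Dnmt1 exon whose level in pooled reads was lower in all libraries with 5-azadC.
Dnmt1, internal start region (minus strand), chr9:20952628-20952787: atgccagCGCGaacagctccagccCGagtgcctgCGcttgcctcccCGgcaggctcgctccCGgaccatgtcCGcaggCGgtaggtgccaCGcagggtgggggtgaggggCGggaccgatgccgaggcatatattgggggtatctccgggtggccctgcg
Dnmt1, near the 5' end (minus strand), chr9:20958824-20958923: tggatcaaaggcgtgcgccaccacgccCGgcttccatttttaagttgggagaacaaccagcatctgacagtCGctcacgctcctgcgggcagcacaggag
Tet3, ahead of the second start (minus strand), chr6:83456605-83456764: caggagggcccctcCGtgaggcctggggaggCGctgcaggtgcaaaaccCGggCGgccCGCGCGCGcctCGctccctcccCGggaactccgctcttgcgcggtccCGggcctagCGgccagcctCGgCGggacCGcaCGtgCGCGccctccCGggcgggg
Tet3, near the 5' end (minus strand), chr6:83458429-83458548: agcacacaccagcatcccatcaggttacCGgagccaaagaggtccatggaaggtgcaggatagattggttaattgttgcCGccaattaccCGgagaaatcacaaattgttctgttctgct
Dnmt3a, internal start (plus strand), chr12:3891528-3891727: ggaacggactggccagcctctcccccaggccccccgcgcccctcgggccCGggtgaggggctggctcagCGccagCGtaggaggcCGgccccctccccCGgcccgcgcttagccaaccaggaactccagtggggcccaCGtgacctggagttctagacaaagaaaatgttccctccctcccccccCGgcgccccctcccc
Uhrf2, upstream flank (plus strand), chr19:30029815-30030014: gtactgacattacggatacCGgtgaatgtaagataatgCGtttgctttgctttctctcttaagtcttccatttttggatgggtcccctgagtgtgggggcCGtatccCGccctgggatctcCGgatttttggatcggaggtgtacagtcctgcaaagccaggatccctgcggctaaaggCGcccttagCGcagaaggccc
Dnmt1, exon near the 3' end (minus strand), chr9:20908474-20908593: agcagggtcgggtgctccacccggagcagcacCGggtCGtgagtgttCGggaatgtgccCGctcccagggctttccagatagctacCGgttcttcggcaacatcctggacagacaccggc
In the first Dnmt1 window 10 of 15 CpGs were measured, and the mean over them ranged from 0 to 1.26% across libraries. The second Dnmt1 window, 965 to 1064 bp from the 5' end and free of exons, had 2 of its 7 CpGs measured and ranged from 74.3 to 100%. The 2 Tet3 windows, both free of exons, formed a pair of the same kind. The one 2320 to 2479 bp from the 5' end, with 19 of 23 CpGs measured, ranged from 0 to 0.299%, and the one 536 to 655 bp from it ranged from 63.1 to 100% over 3 CpGs.

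Dnmt1 lies on chr9:20907209-20959888, minus strand. Its outermost annotated start, that of transcript Dnmt1-202, had a single covered cytosine within 1000 bp, intronic, which was at 100% in both vehicle and both C29 libraries, at 100% and 71.9% with 5-azadC, and at 100% and 48.6% with C29+5-azadC. The starts of Dnmt1-201, Dnmt1-205, Dnmt1-203 and Dnmt1-207 lie 6909, 7043, 7265 and 7283 bp farther in. The 25 cytosines within 500 bp of the start of Dnmt1-203 read 0.960% and 0% with vehicle, 0.632% and 0.0556% with C29, 1.08% and 0% with 5-azadC, and 0% and 0.190% with C29+5-azadC. An oocyte form of DNMT1 is known to start upstream of the somatic start. Methylation of this start region was thus low in every library, and the groups overlapped.

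Dnmt3a lies on chr12:3806007-3914443, plus strand. Its 5' starts, between 491 and 1153 bp from the 5' end, lay in a CpG-rich stretch at 0.0834 to 1.26% over the 98 cytosines around the start of Dnmt3a-218. The starts of Dnmt3a-205 and Dnmt3a-203, 85721 and 85737 bp downstream, were different. A shorter DNMT3A protein is known to be made from an internal promoter. The 18 cytosines around these internal starts read 60.5% and 34.9% with vehicle, 56.7% and 56.3% with C29, 42.9% and 57.4% with 5-azadC, and 64.9% and 51.6% with the combination. All groups overlapped there, and the mean was 53.1%. Single cytosines of this region differed widely, from an 8-library mean of 3.25% at the one 85707 bp from the 5' end to 80.9% at the one 85276 bp from it. The region was unevenly methylated and the mean is not the level of any typical site.

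Dnmt3b, on chr2:153649450-153687730, plus strand, had all starts of its protein-coding transcripts within 167 bp of each other. The 92 cytosines around them read 0.0153% and 0.247% with vehicle, 0.302% and 0.294% with C29, 0.0341% and 0.323% with 5-azadC, and 0.0533% and 0.906% with both drugs. With the flank widened to 1000 bp and 100 cytosines, the 4 libraries with 5-azadC lay above the 4 without it, at 0.305 to 0.833% against 0.0141 to 0.303%. All these levels are within 1 point of 0 and near that of the unmethylated control DNA. The share of all 18941 genes measured at the 5' end whose 4 libraries with 5-azadC lay above the others was 0.644%, and the gene was 1 of 7 members measured there (exact permutation p = 0.0286, adjusted p = 0.897 over all genes). Dnmt3l had 0 of its 6 annotated starts covered.

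Uhrf1, on chr17:56303321-56323486, plus strand, read at most 10.3% in any library in the 8 cytosines around its first start, and at most 0.397% in the 12 cytosines around the start 1027 bp downstream. Uhrf2 lies on chr19:30030513-30093722, plus strand. Its 34 cytosines within 500 bp of the 5' end read 9.94% and 3.44% with vehicle, 1.02% and 4.57% with C29, 2.17% and 0.630% with 5-azadC, and 2.06% and 0% with the combination. The upstream window shown above, at -698 to -499 bp from the 5' end, ranged from 63.7 to 80.3% over 7 cytosines. The step from methylated flank to unmethylated start therefore lay ahead of the first start and was present in all 8 libraries.

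Tet1, on chr10:62804570-62908996, minus strand, had no covered cytosine at its 5' end. The start of Tet1-207, 21672 bp downstream, read 5.95% and 6.85% with vehicle, 6.60% and 7.07% with C29, 5.50% and 5.47% with 5-azadC, and 3.93% and 2.73% with both drugs over 25 cytosines. The 4 libraries with 5-azadC were the lowest 4 in this window. Around the start of Tet1-210, 21484 bp downstream, they overlapped the others. There 12 cytosines read 4.78 to 11.8% without the drug and 0 to 10.2% with it. The 6 cytosines at the start of Tet1-201, 28982 bp downstream, were at 77.8 to 98.8%, so that both ends of the scale were present at starts of the same gene. Tet2, on chr3:133463679-133545139, minus strand, had 42 cytosines around the start of Tet2-201, and 7 of 8 libraries had no methylated read there, while a 5-azadC library had a mean of 0.0567%. Tet3, on chr6:83362373-83459084, minus strand, was methylated near its outermost start, as shown above, and ranged from 0 to 0.715% over 51 cytosines at the start of Tet3-203, 2692 bp downstream, and from 0 to 3.86% over 13 cytosines at that of Tet3-202, 17409 bp downstream. Tdg, on chr10:82629828-82650799, plus strand, had 2 cytosines near the start of Tdg-210, 14650 bp into the gene, at 100% in 6 libraries, 98.8% in a 5-azadC library and 65.9% in a library with both drugs.

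**Figure D1:**
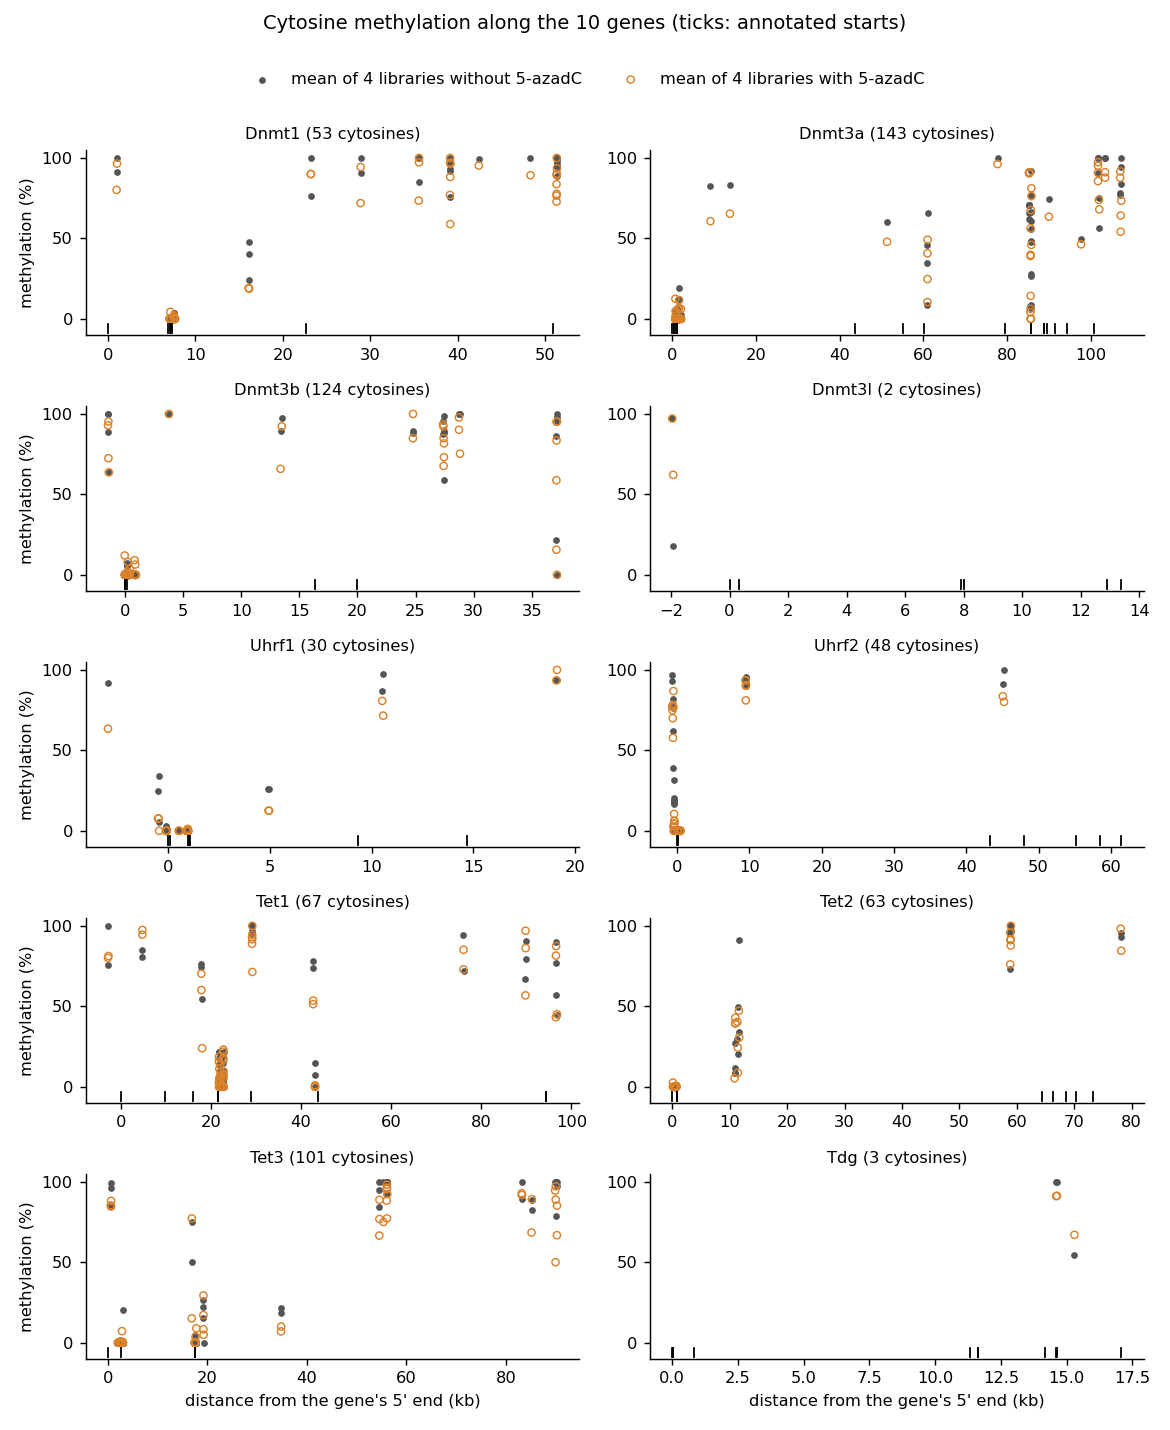
Methylation in percent of each measured cytosine of the 10 genes (vertical axis) against its distance from the gene's 5' end in kb (horizontal axis), as the mean of the 4 libraries without (filled) and of the 4 with 5-azadC (open). Ticks at the foot of each panel mark annotated starts. Cytosines near 0% gather at certain starts, and those of the gene interiors lie mostly above 50%, with open symbols often below filled ones.

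**Figure D2:**
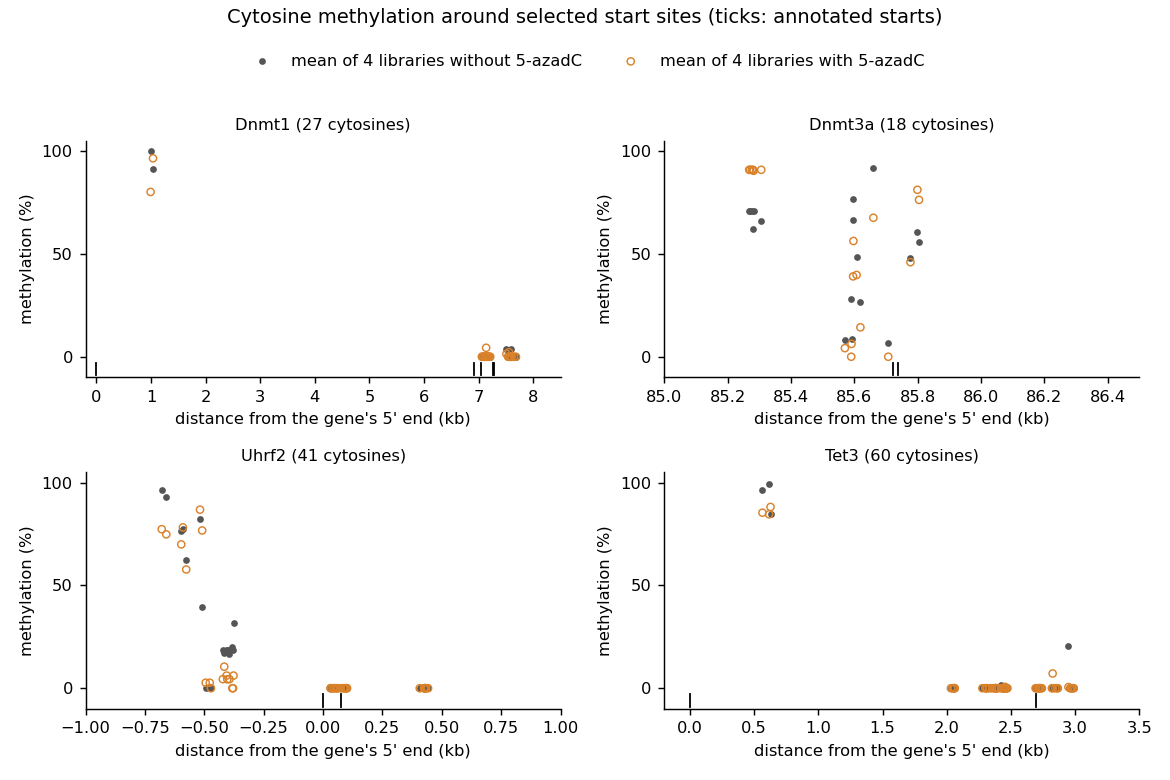
The same values around starts of Dnmt1, Dnmt3a, Uhrf2 and Tet3, with methylation in percent against distance from the 5' end in kb. Tet3 falls from above 60% to near 0% between the outermost and the next start, and Uhrf2 from its upstream flank to the start. Dnmt1 is above 60% near the outermost start and near 0% beyond the next, with no measured cytosine between 1036 and 7058 bp. The internal Dnmt3a start holds the full range.

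Over all 634 cytosines, 427 (67.4%) had an 8-library mean below 10%, 52 were at 10 to 50% and 155 (24.4%) at 50% or above. Among all 567750 cytosines 49.96% were below 10% and 34.4% at 50% or above. Position separated the classes in the members. Within 1000 bp of an annotated start 416 of 490 cytosines were below 10% and 49 were at 50% or above. Farther away 51 of 58 exonic cytosines and 47 of 77 intronic ones were at 50% or above. Tiles of the 10 genes with a mean below 10% had a median of 60 CpGs in the genome sequence (25 to 164), and those at 50% or above a median of 18 (5 to 54). Over the 85 tiles the correlation of CpG number with level was -0.59 (Pearson) and -0.37 (Spearman), given as a description since tiles of a gene share libraries and neighboring sequence.

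By chromatin immunoprecipitation in human breast cancer cells, the study reports ERRα bound near DNMT1, DNMT3A, TET2, TET3 and TDG. Here the core of the ERR response element was looked for in promoters of the 10 mouse genes. In RefSeq promoter windows of the GRCm38 annotation, from 250 bases before to 50 after a start, AAGGTCA on either strand was present in 0 of 17 windows of the 10 genes, all of which were matched. It was present in 1550 of 32851 windows of all genes (4.72%). This says only that these letters are not in these windows. It does not test the binding reported in human cells.

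The first comparison across treatments asked whether the inhibitor of the methyltransferases lowered methylation in the genes that encode them and their counterparts. Gene body methylation was the mean over the measured cytosines of a gene, and the 4 libraries with 5-azadC (alone or with C29) were compared with the 4 without by an exact two-sided permutation test, whose smallest possible p is 0.0286. The mean was lower with 5-azadC in 9 of 9 members measured, with a median difference of -1.62 percentage points. Among all 22326 genes 75.6% were lower, and the median difference was -2.56 points (quartiles -7.24 and -0.03). In 2 of the 9 members, Dnmt1 and Tet3, all 4 libraries with 5-azadC lay below all 4 without, against 10.9% of all genes. In 0 of the 9 they lay above, against 0.269% of all genes.

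Dnmt1, the maintenance methyltransferase, had a gene body level of 46.0% and 47.9% with vehicle, 47.2% and 47.2% with C29, 44.3% and 40.8% with 5-azadC, and 40.2% and 44.1% with C29+5-azadC over 53 cytosines. With minus without the drug was -4.73 points (42.4% ± 2.15 against 47.1% ± 0.805, SD, n = 4 each), with an exact permutation p of 0.0286 and an adjusted p of 0.255 over all genes. The lowest library without the drug, a vehicle library at 46.0%, lay above the highest with it, at 44.3%. Tet3, a dioxygenase, had 23.2% and 26.5% with vehicle, 23.7% and 23.6% with C29, 21.6% and 20.6% with 5-azadC, and 19.2% and 22.9% with both over 101 cytosines. With minus without the drug was -3.15 points (21.1% ± 1.55 against 24.2% ± 1.50, SD, n = 4 each; exact permutation p = 0.0286, adjusted p = 0.255 over all genes). The groups came within 1 point of each other. Both separations were lost when reads were pooled over cytosines instead of averaging them, and when the strands were summed Tet3 was separated and Dnmt1 was not.

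Tet1 showed the next largest difference among the well covered genes. Its 65 cytosines read 32.0% and 32.5% with vehicle, 32.0% and 30.3% with C29, 26.4% and 28.2% with 5-azadC, and 31.6% and 29.1% with both drugs, so that 1 combination library, at 31.6%, lay above a C29 library at 30.3% (difference -2.88 points, exact permutation p = 0.0571, adjusted p = 0.330 over all genes). Dnmt3b, a de novo methyltransferase, read 15.8% and 15.9% with vehicle, 14.7% and 13.95% with C29, 13.7% and 13.1% with 5-azadC, and 14.1% and 15.1% with both. Here both libraries of each treated group lay below both vehicle libraries, and the combination overlapped C29. With minus without 5-azadC was -1.10 points, with overlap (exact permutation p = 0.171, adjusted p = 0.505 over all genes).

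The other members likewise overlapped between the libraries with and without 5-azadC. Differences with 5-azadC were -2.60 points in Uhrf1, -1.60 in Uhrf2, -1.62 in Tdg, -1.08 in Dnmt3a and -0.47 in Tet2, with exact permutation p between 0.171 and 1. Uhrf1 read 21.1% and 17.98% with vehicle, 25.7% and 20.1% with C29, 13.7% and 15.4% with 5-azadC, and 20% and 25.2% with both over 20 cytosines. The 2 libraries with 5-azadC alone were the lowest of the 8. Tdg rested on 3 cytosines and ranged from 66.7 to 100%.

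**Figure D3:**
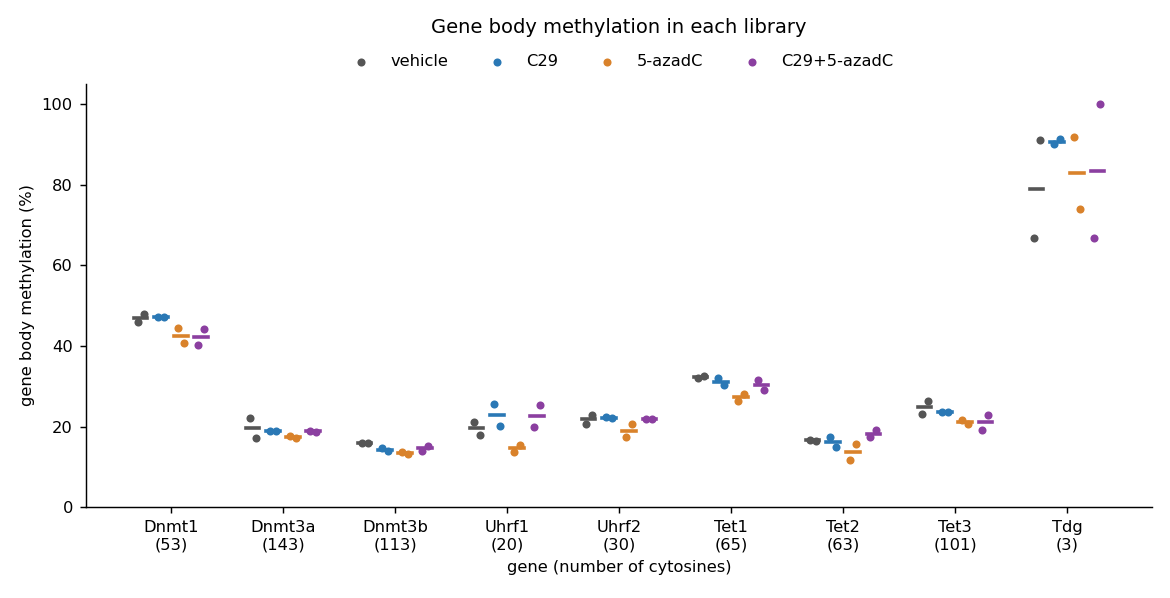
Gene body methylation in percent (vertical axis) of the 9 members with covered gene body cytosines (horizontal axis, with the number of cytosines), by group. Points are the 2 libraries of a group and bars their mean. In Dnmt1 and Tet3 the 4 libraries with 5-azadC lie below the 4 without.

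**Figure D4:**
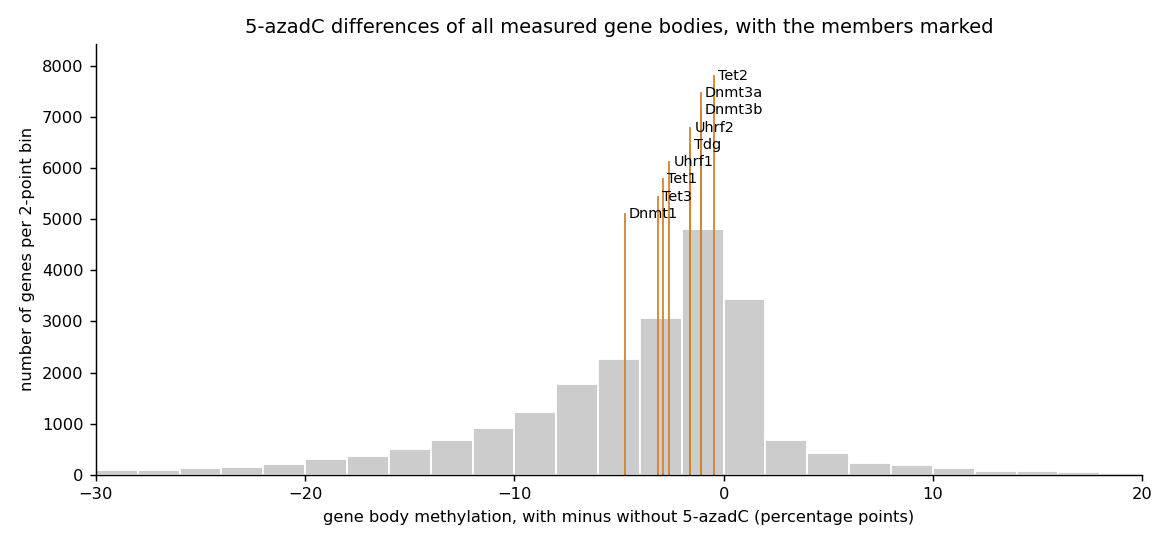
Number of genes (vertical axis) by the difference of gene body methylation with minus without 5-azadC in percentage points (horizontal axis, bins of 2 points) over 22326 genes, with a line for each of the 9 members. Genes beyond the ends of the axis are not drawn. The members lie between -4.73 (Dnmt1) and -0.47 (Tet2), and 36.3 to 68.5% of all genes had a lower difference than theirs.

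C29 was assessed in the same way, 4 libraries with it against 4 without. No member had all 4 libraries with C29 below the others (0 of 9, against 0.779% of all genes), and none had them all above (0.963% of all genes). The median difference of the members was 0.98 points and that of all genes 0.02. Uhrf1 had the largest difference in a gene with more than 3 cytosines, 22.7% with C29 against 17.1% without (5.69 points, within-group SD 2.99, exact permutation p = 0.0857, adjusted p = 1.00 over all genes), with overlap. At the 5' end, within 1000 bp, 7 members were measured, and 0 of them had all libraries with 5-azadC below the rest (2.54% of all genes) or all with C29 below (0.998%) or above (0.824%). Around any annotated start 9 members were measured, and Dnmt1 and Tet1 had all libraries with 5-azadC below the rest, against 3.81% of all genes. These windows take in methylated starts inside the gene. In Dnmt1 they hold the 8 cytosines of the exon near the 3' end, at 70.2 to 98.3%, around the start of Dnmt1-204, 50909 bp in. In Tet1 they hold the 6 around the start of Tet1-201, at 77.8 to 98.8%. Around the start of Dnmt1-203, at most 1.08%, the groups overlapped.

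The levels with 5-azadC were next divided by how methylated a cytosine was and where it lay. The 155 cytosines at 50% or above averaged 82.3% ± 3.53 with the drug and 88.7% ± 1.96 without (SD, n = 4 each), a difference of -6.33 points against -7.71 points for the 195499 such cytosines of the series. The class was set from the mean of all 8 libraries. The 427 cytosines below 10% averaged 0.598% with and 0.577% without. By position, the 58 exonic cytosines away from starts read 86.4% and 86.6% with vehicle, 80.4% and 77.9% with C29, 74.6% and 72.9% with 5-azadC, and 75.4% and 79.9% with both drugs. The vehicle libraries were the highest pair, and the other groups overlapped in part. The 77 intronic ones read 62.8% and 62.5% with vehicle, 64.1% and 59.7% with C29, 51.2% and 53.1% with 5-azadC, and 58.6% and 64.3% with the combination, so that only 5-azadC alone was separate from vehicle and C29.

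The level of a tile is the share of methylated reads among the reads of all its cytosines. In 5 of the 85 tiles all 4 libraries with 5-azadC lay below all 4 without, and in 0 tiles above, against 5.33% and 0.308% of all tiles. With the mean over cytosines in place of pooled reads, 2 of these 5 were separated, those of Tet3 and Dnmt3b, and in 0 tiles the libraries lay above (5.14% and 0.306% of all tiles). These 5 were picked by that separation and are described without further weight on it. In Dnmt1, the exon whose sequence is shown above, 51327 to 51382 bp from the 5' end, had 8 cytosines and tile levels of 96.8% and 96.7% with vehicle, 98.6% and 96.9% with C29, 81.7% and 87.5% with 5-azadC, and 68.6% and 95.3% with both. The last library came within 2 points of vehicle, and by the mean over cytosines it was at 96.03%, above a C29 library at 95.1%. In Tet1 an exonic tile 96553 to 96794 bp from the 5' end held 4 cytosines at 81.0% and 79.0%, 75.6% and 76.4%, 67.5% and 60.1%, and 70.4% and 62.01% in the same order. By the mean over cytosines the groups overlapped, at 57.2 to 76.1% without the drug and 49.2 to 75.8% with it.

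Tet2, the dioxygenase often mutated in blood cancers, held an intronic tile 11353 to 11664 bp from its 5' end with 5 cytosines. It read 51.8% and 50.8% with vehicle, 53.2% and 58.6% with C29, 14.6% and 35.0% with 5-azadC, and 39.3% and 41.7% with both. Of the 5 tiles this one showed the widest difference in pooled reads, -20.9 points. By the mean over cytosines a C29 library was at 32.9%, below both combination libraries at 37.4% and 43.9%. An exonic tile of Tet3, 54554 to 54587 bp from the 5' end with 3 cytosines, read 100% and 100%, 84.4% and 88.1%, 80.4% and 80.9%, and 73.1% and 75.3%. An intronic tile of Dnmt3b, 28730 to 28828 bp from the 5' end, had 3 cytosines at 100% in all libraries without the drug and at 94.4%, 77.4%, 93.8% and 94.4% with it. By the overdispersion-corrected F test over all 8 libraries the unadjusted p of the 5 tiles ran from 0.00105 in Tet1 to 0.0416 in Tet3, and the adjusted p over all tiles from 0.179 to 0.344. With C29, 1 tile had all 4 libraries below the rest (0.781% of all tiles), the Dnmt3a site 51319 bp from the 5' end, and 2 had them above (1.05% of all tiles), an intronic tile of Tet1 89796 bp and one of Tet2 10857 bp from the 5' end. By the mean over cytosines these were the Dnmt3a site (0.779% of all tiles) and the Tet1 tile (1.07%), and the Tet2 tile overlapped.

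Over all 8 libraries no tile of the 113626 passed this F test at an adjusted p of 0.05, for 5-azadC, for C29 or for the difference of the 5-azadC effect with and without C29 (0% called in each). At an unadjusted p under 0.05 there were 11 member tiles for 5-azadC, 10 of them lower, against 13.9% of all tiles, then 6 for C29 against 6.34%, and 3 for the difference of effects against 5.26%. The quasi-likelihood test of edgeR likewise called 0 of the 85 and 0 of all 113626 tiles. At an unadjusted p under 0.05 it had 3, 4 and 2 member tiles, against 6.31, 2.22 and 2.61% of all tiles.

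Pairs of groups were compared by a logistic likelihood-ratio test of the reads of 2 libraries against 2, without a term for the spread between libraries, where a call needed an adjusted p below 0.01 over all tiles and a difference of at least 25 points between the pooled reads. Against vehicle, C29 had 7 of 85 tiles called (8.24%, against 10.6% of all tiles), 6 of them lower (5.43% of all tiles were called lower). 5-azadC had 11 (12.9% against 15.4%), with 10 lower (12.7% of all tiles). C29+5-azadC had 10 (11.8% against 15.1%), with 8 lower (11.6% of all tiles). Against C29 alone the combination had 4 tiles called (4.71% against 15.1%), 3 of them lower (11.4% of all tiles). Against 5-azadC alone it had 12 (14.1% against 13.9%), of which 8 were higher (7.93% of all tiles). The comparisons with vehicle share the vehicle libraries.

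Among the member tiles these calls lay more often where few sites were read. This split was not set against all tiles, and the number of cytosines was not separated from the level. In all 24 tiles were called in at least 1 comparison, 17 of the 42 with 1 or 2 cytosines and 7 of the 43 with more. None of the 17 tiles with a mean below 10% was called, while 8 of 11 at 10 to 50% and 16 of 57 at 50% or above were. These classes were set from the levels of the same libraries, and a call requires a minimum difference in points. Tiles with a mean below 10% therefore had little room to be called, and no conclusion is drawn from the lack of calls among them. No call was made in edgeR's test or with the overdispersion-corrected F test in any of the 5 pairs. Of all 113626 tiles edgeR also called 0 in each pair. At an unadjusted p under 0.05 edgeR had 3, 6, 4, 1 and 1 member tiles, in the order given above. The shares of all tiles were 2.77, 4.13, 3.87, 3.58 and 2.22%. The F test had 6, 10, 5, 3 and 2 member tiles, given without the share of all tiles. An exact permutation test of 2 libraries against 2 cannot go below 0.333.

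The 6 called tiles with the largest differences, among those in which both libraries of a group lay on one side of both of the other, held 1 or 2 cytosines each. In Dnmt3a an intronic cytosine 9130 bp from the 5' end, with 14 to 81 reads, was at 100% and 77.8% with vehicle, 100% and 51.4% with C29, 42.9% and 0% with 5-azadC, and 100% and 100% with the combination. The 0% is 0 of 20 reads, which allows up to 15%. In pooled reads the combination minus 5-azadC alone was 78.05 points (logistic likelihood-ratio test, adjusted p = 9.03e-18), and 5-azadC minus vehicle was -59.1 points (adjusted p = 2.38e-10). A second Dnmt3a site, 51319 bp from the 5' end, read 100% and 56.5% with vehicle, 40.9% and 43.3% with C29, 63.9% and 63.0% with 5-azadC, and 23.1% and 41.7% with both. The combination minus vehicle was -39.2 points (adjusted p = 0.00110), a call lost without vehicle replicate 1 (-21.4 points) and without C29+5-azadC replicate 1 (-32.7 points).

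In Tet1 an intronic cytosine 18041 bp from the 5' end, with 12 to 82 reads, read 100% and 57.7% with vehicle, 61.0% and 0% with C29, 70.7% and 0% with 5-azadC, and 0% and 25% with both. The 0% values are 0 of 13, 0 of 50 and 0 of 39 reads, which allow up to 23.1%, 6% and 7.69%. The combination minus vehicle was -66.3 points (adjusted p = 2.34e-14), although libraries of the same group differed by up to 70.7 points. A tile of 2 intronic Tet1 cytosines, 42687 to 42693 bp from the 5' end, read 93.3% and 65.2%, 92.3% and 53.2%, 4.88% and 52.2%, and 80% and 72.7% in the same order. There 5-azadC minus vehicle was -41.8 points (adjusted p = 3.51e-22), and the combination minus 5-azadC was 37.04 points (adjusted p = 1.17e-14).

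Uhrf1 had a tile of 2 intronic cytosines, 10522 to 10567 bp from the 5' end, at 100% and 68.4% with vehicle, 100% in both C29 libraries, 37.5% and 67.1% with 5-azadC, and 100% in both combination libraries. The combination minus 5-azadC was 41.2 points (adjusted p = 2.30e-14). Of the 2 cytosines upstream of Dnmt3l, the one at -1924 bp read 33.3% and 7.5% with vehicle, 0% and 30.8% with C29, 78.3% and 26.9% with 5-azadC, and 43.5% and 100% with both, on 10 to 78 reads. The 0% is 0 of 37 reads, which allows up to 8.11%. The combination minus vehicle was 40.9 points (adjusted p = 9.76e-05), a call lost without vehicle replicate 2 (27.3 points) and without C29+5-azadC replicate 2 (23.7 points), and with the 10 reads required only in the 4 libraries compared the difference was 15.1 points. Its neighbor at -1958 bp was at 88.5 to 100% in every library.

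**Figure D5:**
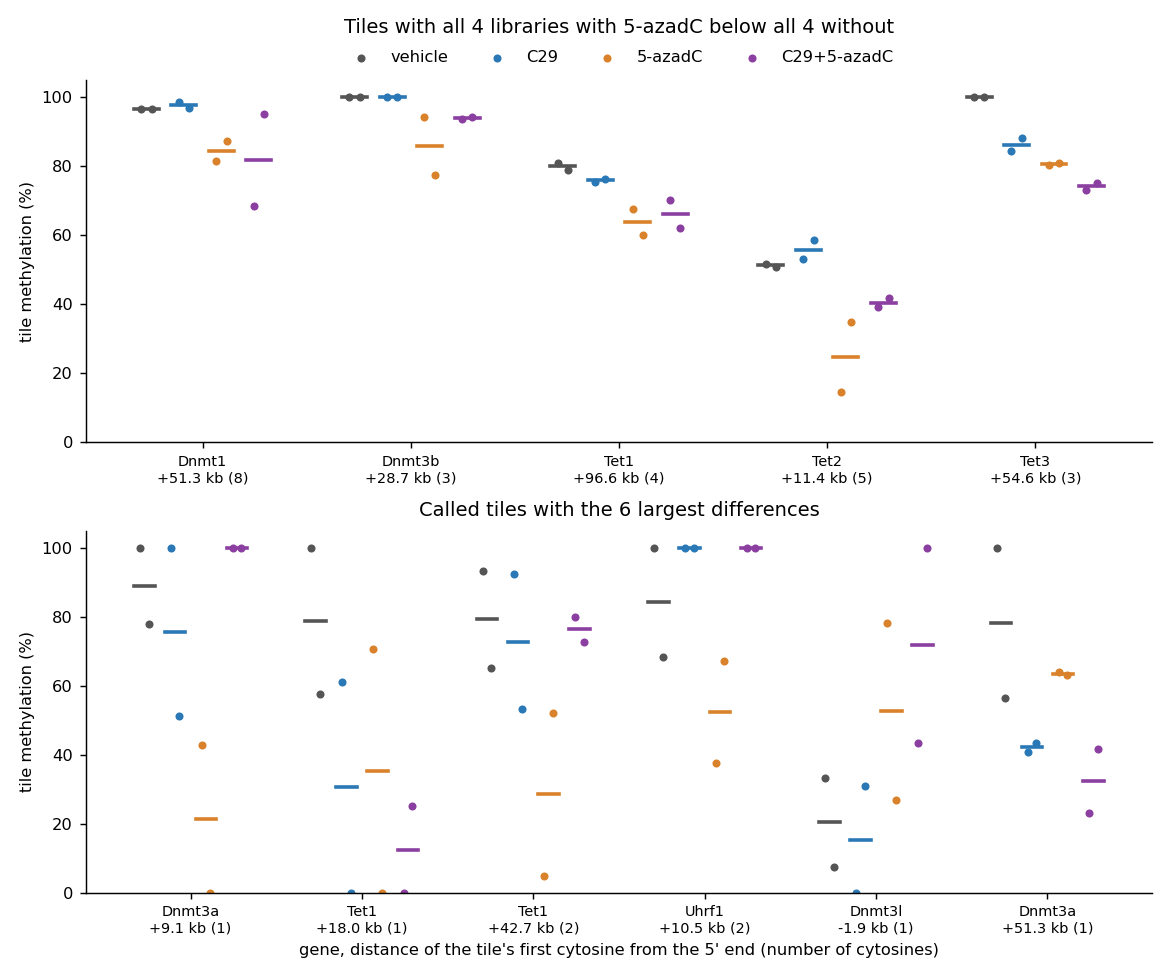
Methylation in percent (vertical axis) of single 1000 bp tiles (horizontal axis, by gene, distance of the first cytosine from the 5' end in kb and number of cytosines) in each library, with bars for group means. Levels are from pooled reads. The upper panel holds the 5 tiles in which all libraries with 5-azadC lie lowest by that measure (2 of them also by the mean over cytosines), and the lower panel the 6 called tiles with the largest differences, where libraries of a group lie up to 70.7 points apart.

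How far a single site can be read was seen from the members themselves. Of the 135 member cytosines with a mean of 10 to 90%, 41.6% of the values of single libraries were exactly 0 or 100%. Their median absolute difference between the 2 libraries of a group was 20.4 points. In 16 CpGs of this range covered on both strands, the strands of the same library differed by a median of 20.6 points. Strand and replicate differences were thus of like size, and near the 25 points that a call requires.

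Other genes of the pathway, from a list of 8 methyl-CpG readers, 10 base excision repair genes and 21 partners and cofactors, were counted in the same way. Of the 39 genes 38 were measured, in 163 tiles. C29 against vehicle had 10 tiles called (6 lower), 5-azadC 20 (17 lower), the combination 19 (14 lower), the combination against C29 20 (13 lower) and against 5-azadC 24 (9 lower), between 6.13 and 14.7% of the tiles, against 10.6, 15.4, 15.1, 15.1 and 13.9% of all tiles in the same order. Gene body means were lower with 5-azadC in 28 of 36 genes, with a median of -2.06 points, against 75.6% of all genes and a median of -2.56 points. All 4 libraries lay below in 4 of them, Lig3, Cdca7, Ehmt1 and Setdb1, against 10.9% of all genes. By list, the means were lower in 5 of 8 readers, 10 of 10 repair genes and 13 of 18 partners and cofactors, against the same 75.6%. Of 31 genes measured at the 5' end, 22 were below 10% there.

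Ogt and Lig3 were among the genes of this list with the largest called differences. In Ogt, an X-linked partner of the TET enzymes, a tile with 5 cytosines read 16.1% and 2.35% with C29 and 80% and 100% with the combination, a difference of 82.7 points. It read 58.7% and 30.7% with vehicle and 65.2% and 0% with 5-azadC, so that libraries of the same group lay far apart. In an adjacent Ogt tile of 3 cytosines the combination minus 5-azadC was -37.2 points, against 43.3 points in the tile of 5. In Lig3, a DNA ligase of base excision repair, 1 cytosine read 100% in all libraries without 5-azadC and 31.8 to 69.1% in those with it, and the combination minus vehicle was -66.7 points. The Ogt tile of 5 cytosines and the Lig3 site rest on 10 to 315 reads per library.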

How the data were processed

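RRBS was measured in 8 libraries, 2 for each of vehicle, C29, 5-azadC and C29+5-azadC, grouped by the sample titles. Per the labels, the submitters' processing notes name FastQC 0.11.8, Trim Galore 0.4.1, Bismark 0.20.0, methylKit 1.7.0 and mm10/GRCm38. The deposited values are, for each CpG cytosine on its own strand, a methylated fraction made by the authors and a read count as deposited, without normalization. Their product gave whole methylated reads within 0.01 for 100% of cytosines.

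Cytosines with at least 10 reads in all 8 libraries were kept, on chromosomes 1 to 19 and X, and strands were kept apart. Tile levels and pairwise differences use reads pooled over the tile, while levels of gene bodies, start sites and sequence windows are means over cytosines. Tile levels as means over cytosines were an alternative chosen after seeing the data, as were all alternatives for the count of tiles separated by 5-azadC. The logistic test, its overdispersion-corrected F test over 4 libraries against 4, and the exact permutation tests were written in Python 3.11.15 with NumPy 2.4.6 and SciPy 1.17.1, and edgeR 4.0.16 (quasi-likelihood, R 4.3.3) was an alternative. Benjamini-Hochberg adjustment was over all tiles or all genes. Tests were tested on simulated data. Tests over libraries measure the spread between pools of 2 mice. Depth ranged from 51359825 to 81299065 reads per library, and a floor of 3 reads was used for values of 0.

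The members and lists were chosen with earlier results of these data known. All 10 members are named, in full the 6 called tiles with the largest differences whose groups do not overlap, and from the pathway list those among the 3 genes with the largest called differences that are reported. Some marker and pathway results are not reported here. The tiles separated in all libraries with 5-azadC, and single cytosines, were chosen after their values were seen. Sequences were read from the GRCm38 genome, and promoter windows from RefSeq. Alternatives changed the coverage minimum, coverage limit, strands, tile length, threshold, test and libraries.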

Additional observations from a re-analysis of the deposited data

Results flagged for a closer look

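In 2 results a drug moved both libraries of a group one way without the other drug and both the opposite way with it. They were picked for this pattern from 9 gene bodies, 7 start sites and 24 called tiles of the members. The share of all genes or tiles with the pattern was not counted. For the gene body of Dnmt3b, C29 minus vehicle was -1.53 points (14.7% and 13.95% against 15.8% and 15.9%), while C29+5-azadC minus 5-azadC was 1.19 points (14.1% and 15.1% against 13.7% and 13.1%). These effects differed by 2.72 points, and the difference was not tested. The within-group SD of this gene body was 0.493 points.

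A tile of Tet3 with 4 exonic cytosines, 19188 to 19232 bp from the 5' end, read 20% and 39.4% with vehicle, 0% and 4.94% with C29, 7.14% and 17.6% with 5-azadC, and 16.7% and 13.6% with C29+5-azadC. In means of libraries 5-azadC minus vehicle was -17.3 points and C29+5-azadC minus C29 was 12.7 points, which differ by 30.02 points. In the overdispersion-corrected F test the difference of effects had an unadjusted p of 0.0499 and an adjusted p of 0.934 over all tiles, and edgeR gave an unadjusted p of 0.0884.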

How the results depend on the processing

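The calls in member tiles depended on the test and the thresholds. Counts under the alternatives are given without the share of all tiles under the same setting. They therefore do not show a change particular to the members. In the order C29, 5-azadC and C29+5-azadC against vehicle, then C29+5-azadC against C29 and against 5-azadC, the counts of called tiles were 7, 11, 10, 4 and 12. They were 3, 5, 3, 2 and 4 with a coverage minimum of 20 reads, on 52 tiles, and 24, 35, 33, 21 and 28 with a minimum difference of 10 points. They were 0 in each with the overdispersion-corrected F test and 0 in each with edgeR. With 10 reads required only in the 4 libraries compared, 15 tiles were called for C29, 16 for the combination against vehicle and 19 against 5-azadC, and with 5 reads 9 for the combination against C29. Leaving out 1 library gave 7 to 10, 14 to 17, 8 to 15, 8 to 10 and 9 to 17, where the lone library of a group is weighed by its reads alone. Changes above 1.5 times were 17 for 5-azadC without vehicle replicate 1 and, for the combination against C29, 9 and 8 without C29 replicate 1 or 2 and 10 without either combination library. The tests over all 8 libraries called 0 tiles under every alternative run.

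Tiles with all libraries with 5-azadC lowest were 5 by pooled reads and 2 by the mean over cytosines, an alternative chosen after seeing the data, and 5 to 8 with 1 library left out (8 without C29 replicate 2 and 8 without C29+5-azadC replicate 2). Members separated in all libraries with 5-azadC were 2 for gene bodies, 1 with strands summed (Tet3), 0 with pooled reads and 2 to 3 with 1 library left out. At start sites they were 0, but 2 when any annotated start counted, those inside the gene included (Dnmt1 and Tet1, against 3.81% of all genes). They were 0 to 1 with 1 library left out, with 1 without vehicle replicate 1 and 1 without C29+5-azadC replicate 1. Counts for C29 were 0 under each alternative run. No named value was scored as reversed, by a rule that gives gene body and start-site differences within the within-group SD no direction. The C29 difference of the Dnmt1 gene body, for example, was -0.0483 points, and 0.0627 points without the start site. Calls of named tiles were lost 11 times over the alternatives, of which the F test made up 6, once for each named tile.

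Libraries of equal replicate number showed no sign of pairing, as deviations from group means correlated between -0.0045 and 0.00719. With 2 libraries per group and noisy single cytosines, this cannot exclude a pairing. With the replicate number as a block the counts of called tiles were again 7, 11, 10, 4 and 12, 0 in the tests over all libraries, 5 for separated tiles, and 2 and 0 for gene bodies and start sites. Depth limits single tiles, since 42 of the 85 hold 1 or 2 cytosines.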
